A study of Mus musculus with 2 samples.

Results

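RANK (Tnfrsf11a), the receptor for RANKL, and the M-CSF receptor (Csf1r) were read together with 8 genes that bind to or act on them in bone marrow cultures. The 10 genes were taken by name from the pathway: the receptors Tnfrsf11a, Csf1r and Lgr4, the TRAF adaptors Traf6, Traf3 and Traf2, the docking adaptor Gab2, the kinase Map3k7 (TAK1), its binding adaptor Tab2, and the inhibitory phosphatase Inpp5d (SHIP1). The choice was made with earlier results of these data known. All 10 were found among the 14870 annotated genes with an assembled locus in at least 1 library. All 10 were also among the 13344 genes tested genome-wide. RNA of wild-type (WT) mouse bone marrow cells was sequenced as 2 libraries, of which M came from cells kept in M-CSF only and MR from cells that also received RANKL. M-CSF was used at 20 ng/mL in both cultures and RANKL at 100 ng/mL in MR. Both cultures began with 2 days in M-CSF alone. The labels give 2 further days with RANKL, the culture method gives 3, and the day of the RNA harvest is not named. There was no replicate of either culture, so that no p-value is given and the intervals below cover counting error only.

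M-CSF binds CSF1R, a receptor tyrosine kinase that keeps macrophages and osteoclast precursors alive and dividing. RANKL binds RANK, which has no enzyme activity of its own and signals through TRAF adaptors to the TAK1 kinase complex, and from there to NF-kappaB and the MAP kinases. Together these ligands drive precursors to fuse into bone-resorbing osteoclasts. LGR4 is known as a further receptor for RANKL that opposes RANK, and SHIP1 removes a phosphate from the lipid product of PI3K.

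TPM, the unit used here, is scaled for transcript length and library total, so that levels of different genes can be compared. The log2 ratio is log2 of (TPM in MR + 1) over (TPM in M + 1), and a gene counts as past the threshold above 1 or below -1. The annotated starts are shown for the RANK gene and for Traf6 and Traf2, the TRAF adaptors above the threshold, and the MR locus of each began inside its window. Each window is printed 5′ to 3′ and ends with the 50 bases from the RefSeq start on, on the strand of the gene (RefSeq, GRCm38.p6). Capitals mark the bases inside the MR locus. The windows are chr1:105780473-105780772 on the plus strand for Tnfrsf11a, chr2:101678170-101678469 on the plus strand for Traf6 and chr2:25546891-25547190 on the minus strand for Traf2.
Tnfrsf11a: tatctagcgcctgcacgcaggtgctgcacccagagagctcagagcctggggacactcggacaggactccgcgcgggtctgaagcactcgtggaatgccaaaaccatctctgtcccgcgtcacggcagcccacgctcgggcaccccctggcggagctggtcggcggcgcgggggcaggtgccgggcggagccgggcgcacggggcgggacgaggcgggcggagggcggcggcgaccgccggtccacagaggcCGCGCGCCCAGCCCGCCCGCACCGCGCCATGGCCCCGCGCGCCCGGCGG
Traf6: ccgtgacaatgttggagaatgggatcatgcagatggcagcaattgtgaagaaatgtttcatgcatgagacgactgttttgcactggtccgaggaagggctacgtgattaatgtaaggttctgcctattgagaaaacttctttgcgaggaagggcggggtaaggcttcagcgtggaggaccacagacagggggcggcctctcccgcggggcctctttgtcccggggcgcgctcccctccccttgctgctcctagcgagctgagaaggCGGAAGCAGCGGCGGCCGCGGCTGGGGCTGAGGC
Traf2: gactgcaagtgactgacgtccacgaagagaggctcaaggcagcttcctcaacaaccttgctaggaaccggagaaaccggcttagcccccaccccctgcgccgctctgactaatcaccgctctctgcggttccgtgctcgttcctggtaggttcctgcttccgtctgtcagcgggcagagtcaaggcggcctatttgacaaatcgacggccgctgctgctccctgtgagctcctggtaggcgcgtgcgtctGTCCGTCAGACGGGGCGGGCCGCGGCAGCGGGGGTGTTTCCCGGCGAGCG

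The Tnfrsf11a locus began 16 bases before the RefSeq start in M and 1 base after it in MR. The Traf6 locus began 20 and 16 bases after the start, and that of Traf2 31 bases after it in M and at the start itself in MR. GC made up 76.7% of the Tnfrsf11a window, 59.3% of that of Traf6 and 64.0% of that of Traf2. RefSeq windows were at hand for 8 of the 10 genes, without Csf1r and Gab2, and Tab2 had 2 windows. The PU.1 core GAGGAA, searched on both strands, was present in 7 of these 9 windows and in 28.3% of the 32851 windows of all genes. Traf6 held it 161 and 106 bases before the start, whereas Tnfrsf11a did not hold it. The loose NF-kappaB pattern GGGNNNNNCC was present in 6 of the 9 windows and in 50.8% of all. Traf3 carried the match GGGGATTTCC at -10 to -1, with the start counted as 0, and it overlaps the only match to the NFAT core TGGAAA among these windows. That core was present in 21.4% of all windows. The AP-1 pattern TGANTCA and the MITF pattern TCANGTGA were present in none of the 9 windows and in 7.81% and 4.18% of all. A match is a description of the letters and not evidence of binding.

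Traf6, Lgr4 and Traf2 had log2 ratios above 1, and none of the 10 genes was below -1. Across all 13344 genes tested, 2796 (21.0%) were above 1 and 1728 (12.9%) were below -1, against 3 of the 10 genes (30%) above 1. With so few genes, 3 of 10 is near that background. The log2 ratio was above 0 for 8 of the 10 genes, against 59.5% of all genes tested. Among the 8 were Map3k7, whose sign turned with the processing, and Lgr4, whose counting interval spanned no difference. Of the other 2, Inpp5d was below 0 throughout and the sign of Gab2 turned when its 5′ locus was taken alone. The median log2 ratio of the 10 genes was 0.71, and that of all genes tested was 0.21. The 10 values ran from -0.32 to 1.34. As the genes were chosen by name, with earlier results of these data known, the difference between the medians was not tested.

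**Figure D1:**
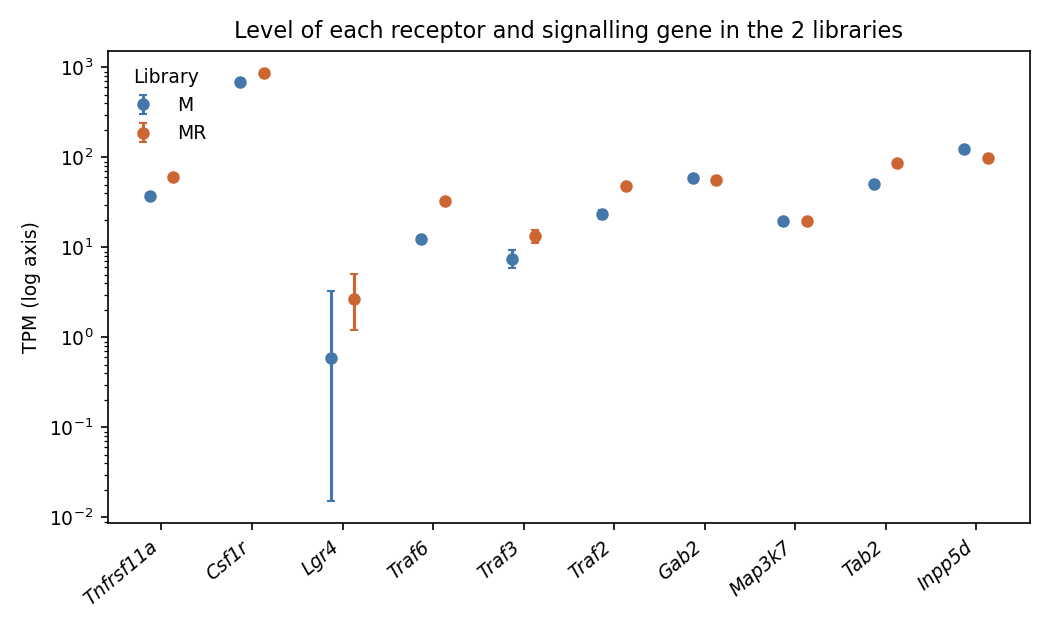
TPM of the 10 genes (log axis) in the M library and the MR library, 1 point per library, with bars for the 95% counting interval where it is wider than the point. Csf1r lies above the other genes in both libraries at 697 and 872 TPM, and Lgr4 lies lowest with the widest intervals.

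Tnfrsf11a encodes RANK and lies on the plus strand of chromosome 1 from 105780718 to 105847981 (GRCm38). Its level was 37.6 TPM in M and 60.0 TPM in MR. The ratio was 1.59 with a 95% counting interval of 1.47 to 1.73, from about 1059 and 1332 read pairs, and the log2 ratio was 0.66. RANK mRNA was therefore present in the culture without RANKL and was higher in the culture with it, by less than the threshold. The locus ran past the annotated 3′ end by 1826 bases in M and by 3686 bases in MR.

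Csf1r, the M-CSF receptor, lies on the plus strand of chromosome 18 from 61100598 to 61132149. It was the most abundant of the 10 genes, with 697 TPM in M and 872 TPM in MR, above 98.7% of tested genes in each library. The ratio was 1.25 (1.22 to 1.28), from about 15103 and 14897 read pairs, and the log2 ratio was 0.32. It was 0.13 under median-of-ratios scaling, which moved the median of all genes by -0.18. Csf1r exceeded Tnfrsf11a by 18.5 times in M and by 14.5 times in MR.

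Lgr4 lies on the plus strand of chromosome 2 from 109917647 to 110014257. It was the lowest of the 10, at 0.595 TPM in M and 2.66 TPM in MR. These levels correspond to about 1 read pair in M and 9 in MR. The MR level is the sum of its loci, at 1.20 and 1.46 TPM, and counts a transcript that spans both more than once. With the longest locus only, the log2 ratio was 0.46. The ratio of 4.47 had a counting interval of 0.620 to 196, so that no difference was detectable at this depth although the log2 ratio was 1.20. The M locus held 236 of the 5884 exon bases of the gene, and the MR loci held 1177 and 455. The upstream MR locus began in the first exon, 316 bases after the annotated start.

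The TRAF adaptors link RANK and related receptors to ubiquitin signalling. TRAF6 carries the main RANK signal, whereas TRAF2 and TRAF3 hold the alternative NF-kappaB kinase in check. Traf6 (plus strand of chromosome 2, 101678429 to 101701669) had 12.3 TPM in M and 32.7 TPM in MR. Its ratio was 2.65 (2.36 to 2.98), from about 426 and 890 read pairs. The log2 ratio of 1.34 was the highest of the 10, and 13.6% of all genes tested had a higher value. Among the 3 genes above the threshold, Traf6 alone stayed above 1 in all 8 alternatives, from 1.15 to 1.40. These changed the pseudocount, the unit, the scaling or the choice of loci.

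Traf2 (minus strand of chromosome 2, 25517982 to 25546940) had 23.2 TPM in M and 47.9 TPM in MR. Its ratio was 2.06 (1.77 to 2.40), from about 280 and 455 read pairs. The log2 ratio of 1.01 lay just inside the threshold, and it was above 1 in 4 of the 8 alternatives. The next gene, just outside, was Tab2 at 0.77.

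Traf3 (plus strand of chromosome 12, 111166370 to 111267153) had 7.51 TPM in M and 13.4 TPM in MR. Its ratio was 1.78 (1.33 to 2.39), from about 74 and 136 read pairs, and the log2 ratio was 0.75. This locus covered only 1766 of the 7350 exon bases in M and 2306 in MR. It ended inside the last exon, at 111261620 in M and 111262174 in MR, and so overlapped the locus described next. The last exon, of 5665 bases from 111261489 to 111267153, was assembled as a separate locus on the opposite strand, with 8.53 TPM in M and 21.7 TPM in MR. The library kit does not mark strand, so that reads of Traf3 and of an antisense transcript cannot be told apart there. With this locus added, the TPM values summed to 16.0 in M and 35.1 in MR, with a log2 ratio of 1.08, above the threshold. TPM is scaled for length, so that the sum counts a transcript that spans both loci more than once. It is then not the level of Traf3. Taken alone, the loci had log2 ratios of 0.75 and 1.26, and whether Traf3 as a whole passed the threshold cannot be decided from this sum. This sum was computed after the data were seen. Traf6 was the lower of Traf6 and Traf2 in both libraries, and Traf3 was the lowest of the adaptors by either locus alone.

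**Figure D2:**
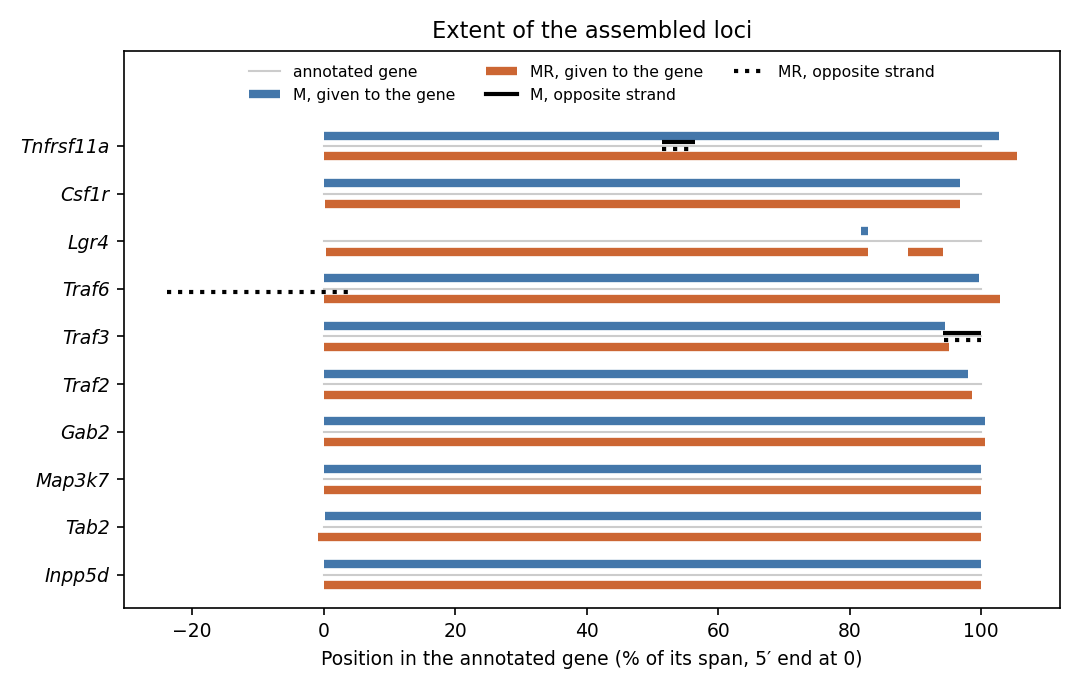
Extent of the assembled loci of each gene in M and MR, as percent of the annotated gene span with its 5′ end at 0, and of the loci on the opposite strand that hold exon bases of the gene and belong to no annotated gene. The Traf3 loci stop early in the last exon, where they overlap the opposite-strand loci, and the Lgr4 locus of M covers a small stretch near the 3′ end of the gene.

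Map3k7 encodes TAK1, the kinase that TRAF6 switches on through ubiquitin chains, and lies on the plus strand of chromosome 4 from 31964097 to 32023467. It had 19.5 TPM in M and 19.6 TPM in MR, a ratio of 1.00 (0.888 to 1.14) from about 592 and 469 read pairs. The log2 ratio of 0.01 was below 0 in some settings, so that no direction is given for it. Its locus ended at the same bases in both libraries, which are those of the annotated gene. It was also the only one of the 10 whose entry under its gene name in the deposited tables has the GRCm38 position. In each library both ends of its locus were ends of a named entry. Whether the locus took its ends from that entry was not tested.

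Tab2 (minus strand of chromosome 10, 7905653 to 7956230) encodes the subunit that docks TAK1 on ubiquitin chains. It had 50.8 TPM in M and 87.5 TPM in MR, a ratio of 1.72 (1.60 to 1.86) from about 1245 and 1691 read pairs. The log2 ratio was 0.77. Tab2 was therefore higher in MR while Map3k7 was not, and their counting intervals did not overlap. The M locus began 91 bases inside the annotated gene, and the MR locus began 420 bases before it.

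Gab2, a docking protein that M-CSF receptor and RANK signalling both use to reach PI3K, lies on the plus strand of chromosome 7 from 97081586 to 97308946. It had 59.8 TPM in M and 56.2 TPM in MR, a ratio of 0.941 (0.837 to 1.06) from about 691 and 513 read pairs. The level is the sum of 2 loci in each library, and it counts a transcript that spans both more than once. The 5′ locus had 37.4 TPM in M and 37.6 TPM in MR, whereas the 3′ locus had 22.4 and 18.6 TPM. Whether the 3′ locus is counted thus set the sign of a difference near 0.

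Inpp5d encodes SHIP1, which limits PI3K signals below CSF1R, and lies on the plus strand of chromosome 1 from 87620312 to 87720507. It had 124 TPM in M and 99.2 TPM in MR, a ratio of 0.798 (0.750 to 0.848) from about 2681 and 1687 read pairs. The log2 ratio of -0.32 was the lowest of the 10, and it was below 0 in all 8 alternatives. In M it was second in level to Csf1r, and in MR it still was.

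**Figure D3:**
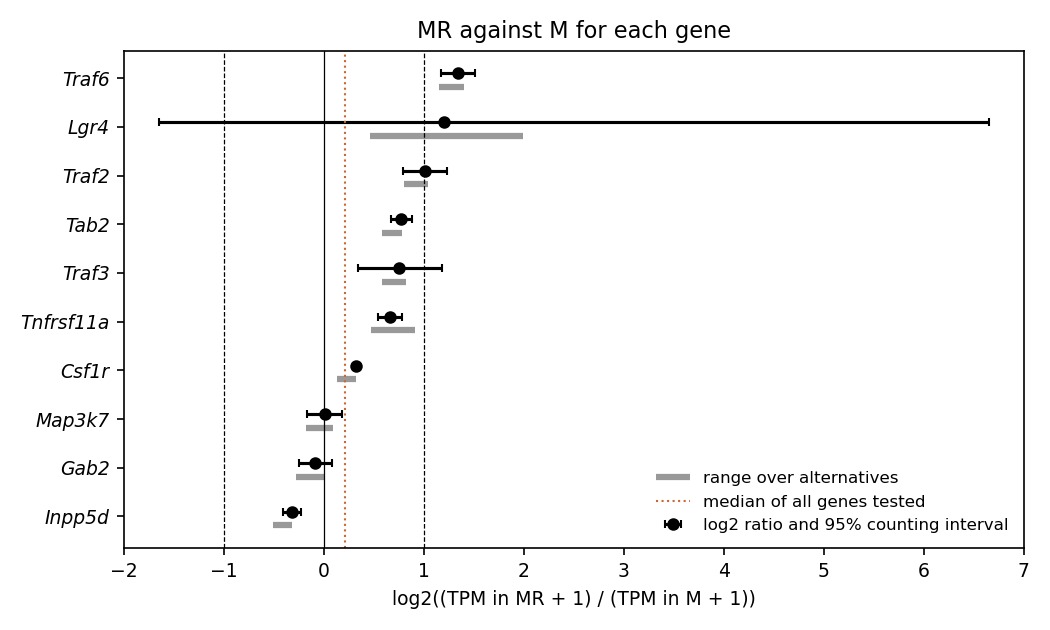
Log2 ratio of MR to M for each of the 10 genes with its 95% counting interval (black) and the range over the alternatives of processing (grey). Dashed lines mark -1 and 1 and the dotted line the median of all genes tested, 0.21. The whole counting interval of Traf6 lies above 1, and that of Lgr4 spans 0.

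In M the order of level ran from Csf1r through Inpp5d, Gab2, Tab2, Tnfrsf11a, Traf2, Map3k7, Traf6 and Traf3 to Lgr4. The counting intervals of Traf2 and Map3k7 overlapped, and those of the other neighbours in this order did not. In MR, Tab2 and Tnfrsf11a stood above Gab2, and Traf6 stood above Map3k7. There the intervals of Tnfrsf11a and Gab2 overlapped, as did those of Gab2 and Traf2. The place of Gab2 in both orders, and its intervals, rest on the sum of its 2 loci. Its 5′ locus alone had 37.4 TPM in M, below Tab2 and near Tnfrsf11a. In MR that locus had 37.6 TPM, below Traf2. The counting interval of the ratio lay above 1 for Tnfrsf11a, Csf1r, Traf6, Traf3, Traf2 and Tab2, below 1 for Inpp5d, and on both sides of 1 for Lgr4, Gab2 and Map3k7.

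The 6 lists of other genes of these pathways held 136 genes, of which 123 had a locus and a TPM of at least 1 in either library. Of these, 19 (15.4%) were above 1 and 15 (12.2%) below -1, with a median log2 ratio of 0.18. The pathway genes as a whole thus did not stand above the background of 21.0%, 12.9% and 0.21. The sets differ in that the lists kept genes that share a locus with another coding gene, which the background left out. Larger differences than in the 10 genes were found for single members of each list but that around LGR4.

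Among 13 genes for the RANK ligand, its decoy and the TRAF family, 4 were above 1 and 2 below -1, with a median of 0.20. Traf1, an adaptor without a RING domain that is itself an NF-kappaB target, had 21.8 TPM in M and 148 TPM in MR, a log2 ratio of 2.71. Traf5, a relative of Traf2 and Traf3, had 11.1 and 36.0 TPM (1.61). Traf3ip2, which encodes the IL-17 receptor adaptor ACT1, had 3.65 and 16.0 TPM (1.88). Traf4 (1.04 and 2.52 TPM, 0.78) and Traf7 (32.2 and 35.8 TPM, 0.15) were within the threshold. Lower in MR were Tifa, a TRAF6-binding adaptor, at 47.8 and 14.2 TPM (-1.69), and Traf3ip3 at 11.1 and 4.22 TPM (-1.21). The ligand gene Tnfsf11 had no locus in either library, and its decoy Tnfrsf11b had 1.19 and 1.51 TPM.

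Of 25 TAK1, IKK and ubiquitin genes, 4 were above 1 and 1 below -1, with a median of 0.24. Ikbkg, the regulatory subunit of the IKK complex, had 21.2 TPM in M and 62.9 TPM in MR (1.53). Tnfaip3, which encodes the deubiquitinase A20 that restrains NF-kappaB, had 20.5 and 59.4 TPM (1.49). Ikbke, an IKK-related kinase of the interferon response, had 92.2 and 18.3 TPM (-2.27). The other TAK1-binding genes stayed within the threshold, Tab1 at 11.8 and 21.1 TPM (0.79) and Tab3 at 3.86 and 5.10 TPM (0.33).

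Of 24 MAP kinase genes, 3 were above 1 and 3 below -1, with a median of -0.03. Dusp4, a phosphatase that switches off MAP kinases, had 5.94 TPM in M and 136 TPM in MR (4.30), and its relative Dusp1 had 87.1 and 17.6 TPM (-2.25). Map2k3, a kinase of p38, had 50.6 and 176 TPM (1.78), and Map3k1 had 29.0 and 10.7 TPM (-1.36). No locus was given to Mapkapk2.

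Of 33 M-CSF ligands and CSF1R adaptors, 6 were above 1 and 5 below -1, with a median of -0.21. Spry1 and Spred1, feedback inhibitors of receptor tyrosine kinases, had 1.10 and 27.3 TPM (3.75) and 39.3 and 175 TPM (2.13). The ligand genes went in opposite directions. Csf1 had 11.9 TPM in M and 3.06 TPM in MR (-1.67), whereas Il34, the other CSF1R ligand, had no locus in M and 8.59 TPM in MR. The Gab2 relatives Gab1 (3.89 and 3.14 TPM, -0.24) and Gab3 (6.91 and 5.83 TPM, -0.21) were within the threshold, as Gab2 was.

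Of 23 PI3K, AKT and phosphatase genes, 2 were above 1 and 4 below -1, with a median of 0.28. The catalytic subunit gene Pik3cb had 23.2 TPM in M and 61.1 TPM in MR (1.36). Pik3ap1, an adaptor that brings PI3K to Toll-like and B cell receptors, had 429 and 188 TPM (-1.18), and Pik3r6 had 10.7 and 3.94 TPM (-1.24). Inppl1, which encodes the SHIP1 relative SHIP2, had 80.0 and 71.1 TPM (-0.17). Of 13 LGR4-related genes, 5 reached 1 TPM and none passed the threshold, from Gsk3a at 68.3 and 87.8 TPM (0.36) to Gsk3b at 24.1 and 23.7 TPM (-0.03) among those with 10 TPM. The paralogs Lgr5 and Lgr6 had no locus, nor had the R-spondin genes Rspo1 to Rspo4 that LGR receptors bind.

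The cultures also differed in cell type markers. The summed level of 10 osteoclast markers was 126 TPM in M and 25193 TPM in MR, all 10 were above 1, and Dcstamp, Ocstamp, Calcr, Oscar and Siglec15 were at 0 in M. The summed level of 10 macrophage markers was 26275 TPM in M and 8289 TPM in MR. Lyz2 alone gave 16035 and 4535 TPM of these sums, from a locus shared with another coding gene. Of the 10 macrophage markers, 6 were below -1 and none was at 0. The other 4 were within the threshold, and Spi1 among them was higher in MR (0.74). Neutrophil markers summed to 1431 and 976 TPM, with 1 of 10 below -1 and none at 0. The lymphoid, erythroid, mast cell and basophil, dendritic, endothelial and stromal lists each summed to between 3.27 and 115 TPM in either library. No locus was found in either library for the defining genes Cd3e, Cd3g, Cd8a and Rag1 of lymphocytes, Hbb-bt, Klf1 and Alas2 of erythroid cells, Ms4a2 and Fcer1a of mast cells and basophils, Cd209a of dendritic cells, Emcn of endothelial cells, and Bglap and Lum of stroma. The part of these marker differences in the levels of the 10 genes was not tested. In RNA of whole cultures, more cells that express a gene and more RNA of it per cell cannot be told apart.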

How the data were processed

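Each condition had 1 RNA library. The authors used a NEBNext Ultra RNA kit, trimmed paired reads of 150 bases with Trim Galore, used HISAT2 for alignment to GRCm38 (mm10) and StringTie with GENCODE vM27 for levels; versions are not given in the sources used here. The deposited tables list a coverage (signal per base, not scaled for depth), an FPKM and a TPM per entry. The TPM of the assembled loci has the same sum in each library, and entries with gene names come on top. These entries follow GENCODE vM27, whose positions are on GRCm39, and were not used.

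Of 19422 (M) and 19922 (MR) assembled loci, 15665 and 16523 were given to a GENCODE vM21 (GRCm38) gene. The gene taken was the one, on a compatible strand, whose exons shared most bases with the locus (50 or more). This placed 95.4% and 96.9% of TPM. TPM was summed per gene, with 0 for a gene that had no locus in 1 of the libraries. Of 14870 genes, 329 shared a locus with another coding gene and stayed out of genome-wide counts, and 268 inside the locus of another gene had no value, a rule added after the data were seen. Tested genes had a TPM of at least 1 in either library. The pseudocount was 1.

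Dividing coverage by FPKM (entries over 5) and taking the commonest quotient gave a depth of 3.63 Gb (M) and 2.98 Gb (MR). Read counts are not listed. Pairs per gene were estimated low, from FPKM and the smaller of the shortest coding transcript and the exon bases in the locus, at 300 bases per pair. The 95% interval of each ratio is exact (Clopper-Pearson). Scripts used Python 3.11.15 with scipy 1.17.1, pandas 2.3.3, numpy 2.4.6 and matplotlib 3.10.9, and the assignment was tested on simulated data.

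Alternatives changed the pseudocount, the filter, the unit (FPKM or coverage), the scaling, the choice of loci and the threshold. The 10 genes and the lists were chosen with earlier results of these data known. From each pathway list, the text names the 2 highest above 1 and the 2 lowest below -1 with at least 10 TPM in either library and a locus of their own (the extremes where none passed), the paralogs of the 10 genes, and the ligands. A gene that this rule names is not reported here.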

Additional observations from a re-analysis of the deposited data

Results flagged for a closer look

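Assembled loci that belong to no annotated gene and lie on the strand opposite to 1 of the 10 genes, over some of its exon bases, were higher in MR than in M in 3 cases. The locus over the last exon of Traf3 had 21.7 TPM in MR and 8.53 TPM in M (log2 ratio 1.26) and held 5665 exon bases of the gene in MR. A locus that starts within Traf6 and runs away from it, from 101672878 to 101679315 on the minus strand of chromosome 2 (GRCm38), had 1.69 TPM in MR and none was assembled in M. It held 192 exon bases of Traf6. A locus within Tnfrsf11a, from 105815363 to 105818742 on the minus strand of chromosome 1 with 94 exon bases of the gene, had 1.39 TPM in MR and 0.657 TPM in M (log2 ratio 0.53). The kit does not mark strand, and the cause of these loci was not tested.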

How the results depend on the processing

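Of 213 values recomputed under alternatives, 194 stayed within their limits, 19 moved, and no value past the threshold changed sign. The limits were the counting interval for 1 gene and 1.5 times the main count for counts. For medians they were a range of the ranked log2 ratios of the set, or the quartiles of all genes tested. Median-of-ratios scaling lowered log2 ratios by about 0.19, and gave 0.47 for Tnfrsf11a, 0.13 for Csf1r, 1.15 for Traf6, -0.28 for Gab2, -0.18 for Map3k7, 0.58 for Tab2 and -0.51 for Inpp5d, while the median of all genes moved by -0.18. Coverage per aligned Gb gave 0.91 for Tnfrsf11a and 0.65 for Tab2, and FPKM gave 0.26 for Csf1r. With the 20 most abundant genes and those of the mitochondrial genome left out, Csf1r was 0.23 and Inpp5d -0.41. The 10 genes above 1 numbered 1 with FPKM and 1 with coverage, namely Traf6, and 0 of the 10 passed a threshold of 2. Of all genes, 1585 were above 1 and 969 below -1 with a TPM of at least 10, and 922 and 495 passed a threshold of 2. Lgr4 ranged from 0.46 to 1.99 and was above 1 in 5 of 8 settings. Map3k7 was above 0 in 5 of 8 settings, and Gab2 in 1 (0.01, longest locus only). The median of the LGR4-related list turned from 0.17 to -0.02 under median-of-ratios scaling and to -0.03 with coverage. The Traf3 sum with the opposite-strand locus, the 5′ locus of Gab2 alone and genes inside another locus set to 0 were added after the data were seen. No replicate could be left out. No paired analysis was possible because each condition has 1 library.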

Other observations

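Levels of genes whose products work together were also compared within each library, as ratios of TPM with no replicate. Tab2 exceeded Map3k7 by 2.60 times in M and 4.45 times in MR. Traf6 exceeded Traf3 by 1.64 times in M and 2.45 times in MR, with the opposite-strand locus of Traf3 left out. Inpp5d exceeded Gab2 by 2.08 times in M and 1.76 times in MR, with the 2 loci of Gab2 summed. Outside the naming rule, and chosen after their values were seen, are the sister genes Birc2 and Birc3, which encode ubiquitin ligases that work with TRAF2. Birc2 had 15.3 TPM in M and 33.5 TPM in MR (log2 ratio 1.08), and Birc3 had 26.0 and 56.8 TPM (1.10).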
